A study of Mus musculus with 2 samples.

Results

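The 10 genes described here belong to the transcriptional response of neurons to activity. They comprise the transcription factors Egr1, Egr2, Egr3 and Egr4, the nuclear receptors Nr4a1, Nr4a2 and Nr4a3, and 3 genes called effectors here, Arc, Npas4 and Nptx2. They were found by symbol in the transcript tables and linked by gene identifier to the gene tables, and all 10 were present among 55536 mouse genes. Total RNA was sequenced from tissue labelled as layer of hippocampus of adult female 5xFAD/CAST mice aged 8 to 10 months, in 2 libraries that form a single group. 5xFAD animals carry mutated human transgenes under the neuronal Thy1 promoter, and CAST is an inbred strain derived from wild mice, a background that both libraries share. The labels record no stimulation, handling or time of collection. No control group was analysed here, so levels are given as descriptions and no hypothesis test was run. The 2 libraries have separate biosample records and the same donor record, which leaves it unknown if 1 or 2 animals were sampled, so the SDs below measure the spread between these 2 samples.

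Immediate early genes are transcribed within minutes of synaptic activity, from factors already present in the cell such as CREB and serum response factor. The Egr proteins bind GC-rich DNA through 3 zinc fingers, the Nr4a proteins are orphan nuclear receptors that bind DNA without a classical ligand, and Npas4 is a neuron-restricted factor of the basic helix-loop-helix PAS class. Arc acts at synapses in the internalisation of AMPA receptors, and Nptx2 is a secreted pentraxin that gathers AMPA receptors at excitatory synapses. In the hippocampus these genes are widely used as marks of recently active neurons and are linked to memory.

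Family members share stretches of coding sequence, and a read that lay wholly inside such a stretch could not be given to 1 gene. Long exact runs that leading transcripts of the Egr and Nr4a genes shared are shown for that reason, read 5′ to 3′ from the GENCODE M21 transcripts. Sequences, windows and motif matches here and below are those of the mm10 reference. Alleles of the CAST background may differ from it and were not examined. The first lies in coding sequence of Egr2 at chr10:67540653-67540696 (mm10, plus strand) and holds 44 bases that Egr2 and Egr3 have in common. It falls in the part that encodes the zinc fingers. The second lies in coding sequence of Nr4a2 at chr2:57110704-57110730 (minus strand), with 27 bases in common with Nr4a3. The third lies in coding sequence of Nr4a1 at chr15:101270946-101270969 (plus strand), with 24 bases in common with Nr4a3. Both Nr4a runs encode parts of the DNA-binding domain. No part of these runs is set in capitals.
Egr2 and Egr3: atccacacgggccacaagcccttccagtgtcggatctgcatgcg
Nr4a2 and Nr4a3: gcaaataaaaactgcccagtggacaag
Nr4a1 and Nr4a3: gagggctgcaagggcttcttcaag

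These runs were short beside the transcripts that hold them. Of 2935 windows of 31 bases in the leading Egr2 transcript, 14 occurred in a transcript of another gene. Egr1, Nr4a1, Arc, Npas4 and Nptx2 had 0 such windows. In Nr4a2 and Nr4a3, 21 of 3538 and 32 of 5690 windows occurred elsewhere, and none of them in another of the 10 genes. With windows of 100 bases, none of the 10 leading transcripts shared a window with another gene. The deposited posterior SD of the gene-level count, which measures how uncertainly reads were divided, was 0 in both libraries for all 10 genes. That was so for 82.3% of the 13251 detected nuclear protein-coding genes.

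Levels are given in TPM, a transcript abundance that divides by length and so allows genes to be compared, as the mean ± SD of 2 libraries. All 10 genes had 1 TPM or more in each library, the level called detected here. Among 22015 nuclear protein-coding genes 60.2% were detected, with a median of 15.3 TPM, and 6 of the 10 genes lay above that median. The lowest and the highest of the 10 differed 28.4-fold. TPM here is shared with mitochondrial, structural RNA and spike-in rows. Rescaled to nuclear protein-coding genes alone every level was higher, with Arc at 87.7 TPM in place of 39.2 and Egr2 at 3.10 in place of 1.38. That rescaling multiplies all genes of a library by the same factor, so it raises every level and keeps the order within a library by construction. Summed levels of the 3 sets lay close together, with 62.2 ± 0.424 TPM (SD, n = 2) for the 4 Egr genes, 66.7 ± 1.70 TPM for the 3 Nr4a genes and 57.3 ± 0.813 TPM for Arc, Npas4 and Nptx2.

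A pair of Egr genes made up most of the Egr total. Egr3, a factor needed for muscle spindle formation and for long-term memory, had 27.0 TPM in replicate 1 and 28.5 TPM in replicate 2 (1545 and 1844 expected counts; chromosome 14, 70077203 to 70082614, plus strand). Egr1, also called Zif268 and the most used of the family as a mark of plasticity, had 25.1 and 24.2 TPM (1531 and 1665 counts; chromosome 18, 34859823 to 34864984, plus strand). Egr3 and Egr1 took 44.7% ± 1.98 and 39.7% ± 0.821 of the summed Egr TPM, and in both libraries Egr3 was the higher of the pair. In the kallisto-layout table that order turned, with 22.2 ± 0.00891 TPM for Egr3 and 23.3 ± 0.810 TPM for Egr1. Of the Egr3 level above, 4.37 and 4.36 TPM lay on the short transcript Egr3-203, from 33.4 and 38.0 counts. The kallisto layout gave that transcript 0 counts. Egr4 had 8.60 and 8.13 TPM (346 and 373 counts; chromosome 6, 85511121 to 85513589, minus strand), 13.5% ± 0.443 of the family.

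Egr2, known as Krox20 and needed for hindbrain patterning and myelination by Schwann cells, was the lowest of the 10 genes. It had 1.70 TPM in replicate 1 and 1.06 TPM in replicate 2 (chromosome 10, 67535475 to 67542188, plus strand), from 56 and 64 expected counts. As shares of the library the 2 counts were nearly equal, at 2.01 and 2.00 CPM, the count relative to the scaled library total. The gene length used in the deposited table differed between the libraries, 1772 bases in replicate 1 and 2801 in replicate 2. In replicate 1 the short transcript Egr2-204, of 427 bases, held 4.77 counts but 43.5% of the gene's TPM, and in replicate 2 it held 0 counts. In the kallisto-layout table the libraries stood the other way round, at 0.986 and 1.38 TPM, and the first of these was below the level called detected. The point estimate of 1.06 TPM in replicate 2 also lay under its own deposited interval of 1.16 to 2.73 TPM. At this depth the 2 libraries could not be told apart for Egr2, and its transcripts are not described further.

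The 3 Nr4a genes lay within a narrow range. Nr4a1, or Nur77, had 27.1 TPM in replicate 1 and 25.6 TPM in replicate 2 (1097 and 1258 counts; chromosome 15, 101254269 to 101274795, plus strand). Nr4a3, or Nor1, had 21.5 and 21.6 TPM (1934 and 2332 counts; chromosome 4, 48045153 to 48086447, plus strand). Nr4a2, or Nurr1, which is also needed for midbrain dopamine neurons, had 16.9 and 20.7 TPM (1064 and 1356 counts; chromosome 2, 57106830 to 57124003, minus strand). Nr4a1, Nr4a3 and Nr4a2 took 39.5% ± 2.67, 32.3% ± 0.645 and 28.2% ± 3.32 of the summed Nr4a TPM, in the same order in both libraries. Their values did not overlap across libraries, though the lowest Nr4a3 value and the highest Nr4a2 value were 21.5 and 20.7 TPM.

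Arc was the highest of the 10 genes in each library, at 38.5 and 40.0 TPM (2234 and 2647 counts; chromosome 15, 74669083 to 74672570, minus strand), above 79.4% of detected nuclear protein-coding genes. Nptx2 had 14.5 and 15.1 TPM (692 and 822 counts; chromosome 5, 144545902 to 144557478, plus strand), close to the median of those genes. Npas4 had 3.80 and 2.87 TPM (257 and 208 counts; chromosome 19, 4984355 to 4990316, minus strand), above 12.9% of them. Arc thus took 68.4% ± 0.855 of the summed TPM of these 3 genes and Npas4 5.83% ± 1.23.

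From the highest to the lowest mean the order was Arc, Egr3, Nr4a1, Egr1, Nr4a3, Nr4a2, Nptx2, Egr4, Npas4 and Egr2. Of the 9 pairs of neighbours, Egr3 and Nr4a1 were the pair whose libraries overlapped, and they changed places between the libraries. Nr4a3 and Nr4a2 were 2.73 TPM apart beside an SD of 2.69 TPM for Nr4a2, and Nr4a1 and Egr1 1.70 TPM apart beside SDs of 1.11 and 0.679 TPM, so these neighbours too stood little further apart than their spread. The largest steps by ratio came at the lower end, where Egr4 stood 2.51-fold above Npas4 and Npas4 2.42-fold above Egr2. By the kallisto layout, 7 of the 10 genes kept their place, with Nr4a1, Egr1 and Egr3 in places 2, 3 and 4.

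**Figure D1:**
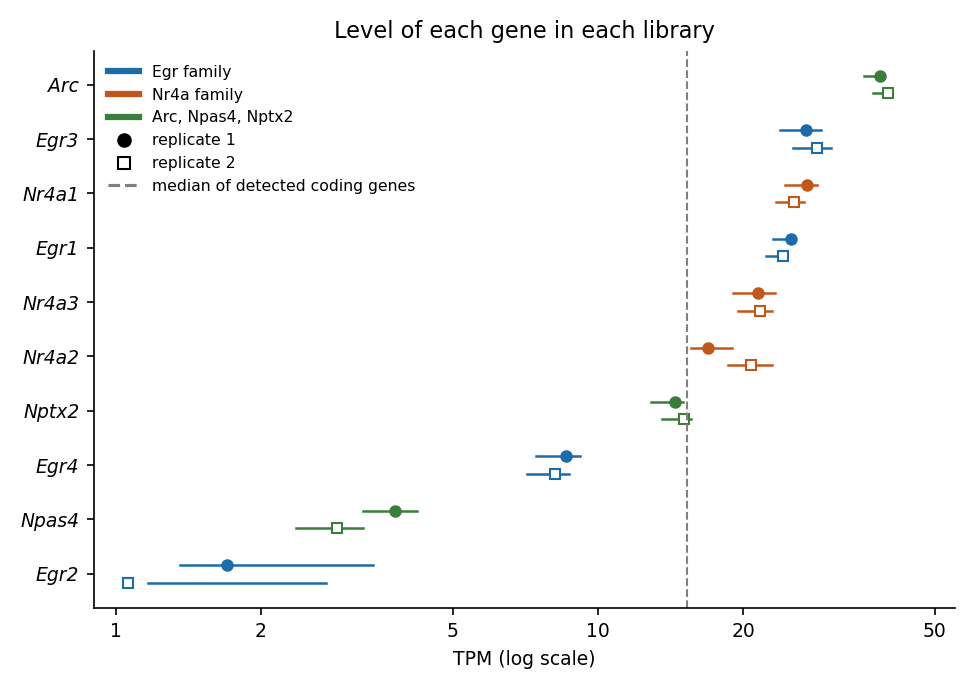
TPM of each gene (log axis) in replicate 1 (filled circles) and replicate 2 (open squares), with the interval deposited for each value as a bar and the median of detected nuclear protein-coding genes as a dashed line. Arc stands highest at 38.5 and 40.0 TPM, and Egr2 lowest at 1.70 and 1.06 TPM, the latter outside its bar.

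The 2 libraries were then compared gene by gene, which measures how far these activity genes varied between samples of 1 group. Expected counts were scaled by TMM and given as the log2 ratio of replicate 2 over replicate 1, with an exact 95% (Clopper-Pearson) interval that covers counting error only. None of the 10 genes reached a 2-fold difference, against 2.68% of the 18906 mouse genes whose counts averaged 10 or more (507 genes), so a count of 0 among 10 lies near the background. Of the 10 genes 5 were higher in replicate 2 and 5 lower, with a median log2 ratio of 0.02 against 0.00 over all genes compared. The median absolute log2 ratio was 0.06 for the 10 genes, 0.12 for all genes compared and 0.09 for the 13097 genes whose counts averaged 100 or more. Arc differed by 0.04 (interval -0.04 to 0.12), Nr4a1 by -0.01 (-0.13 to 0.11) and Egr1 by -0.08 (-0.19 to 0.02). Egr3, Nr4a3, Nptx2 and Egr4 likewise had intervals that held 0.

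Npas4 and Nr4a2 were the 2 genes whose counting interval left out 0. The share of all genes with such an interval was not computed, so this count has no background beside it. Npas4 stood at 9.25 CPM in replicate 1 and 6.49 in replicate 2, a log2 ratio of -0.51 (-0.78 to -0.24). Of those better-counted genes 1.85% had a larger absolute log2 ratio than Npas4. Its lower value in replicate 2 was present under each scaling and in both tables, with log2 ratios from -0.52 to -0.31. Nr4a2 stood at 38.3 and 42.3 CPM, a log2 ratio of 0.14 (0.03 to 0.26). Of the same genes averaging 100 counts or more, 28.7% had a larger absolute ratio. With 1 library of each number, neither gene has a spread between samples of its own, and these shares set each ratio beside other genes only.

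**Figure D2:**
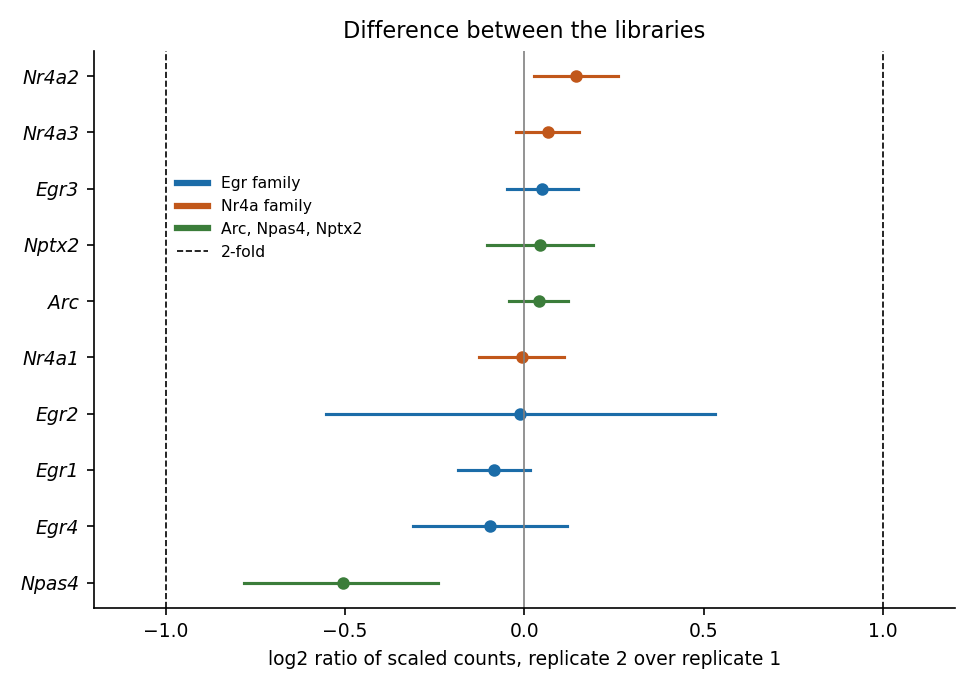
log2 ratio of TMM-scaled counts, replicate 2 over replicate 1, for each gene, with a bar for the exact 95% counting interval and dashed lines at 2-fold. Npas4 lies at -0.51 and Nr4a2 at 0.14 with bars clear of 0, the other bars cross 0, and no point reaches a dashed line.

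Replicates 1 and 2 held 27682992 and 32169915 expected counts on mouse genes, and the coefficient of variation between them was 7.11%. Genes that mark hippocampal fields were detected throughout, 4 of 4 for CA1, 4 of 4 for CA2 and CA3, and 4 of 4 for dentate granule cells, and so were 5 of 5 neocortical markers. At the same threshold 60.2% of nuclear protein-coding genes were detected. The makeup of the libraries differed, and in bulk tissue fewer cells of a type cannot be told apart from less RNA per cell. All 6 pan-neuronal markers were higher in replicate 2 (median log2 ratio 0.13), with summed levels of 2233 and 2424 TPM in replicates 1 and 2. The 6 glutamatergic markers were likewise all higher, with a median of 0.19 and sums of 2218 and 2499 TPM. The 5 oligodendrocyte markers were all lower, with a median of -0.31 and sums of 1828 and 1483 TPM. The 5 choroid plexus markers, 4 of them detected, were lower by a median of -1.56, with sums of 446 and 155 TPM, and 3 of the 5 were past 2-fold. The 4 ependymal markers were lower by a median of -1.22 (27.3 and 19.0 TPM summed, 3 past 2-fold) and the 5 red blood cell markers by a median of -0.53 (289 and 202 TPM summed). Of all genes compared 2.68% were past 2-fold. No marker was at 0 in both libraries. Npas4 thus stood lower in the library in which pan-neuronal markers stood higher and choroid plexus, ependymal and red blood cell markers lower, and the part of tissue makeup in the ratios of the 10 genes was not tested.

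Transcripts were compared in 2 deposited tables, one in the layout of RSEM and one in the layout of kallisto, since several of these genes have more than 1 start site or splice form. The 10 genes have 34 annotated transcripts, and Egr4 and Nptx2 have 1 each. Of the 8 genes with several, 6 had the same leading transcript in both tables and both libraries, and 70.1% of 11979 detected coding genes with several transcripts did. Nr4a1 and Egr2 were the 2 exceptions. Egr1-202, with 3 exons, took 89.6% ± 1.34 of the Egr1 TPM in the RSEM layout and 89.2% ± 1.42 in the kallisto layout. The remainder lay on Egr1-201, which begins 5′ of it.

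For Nr4a1 the 2 tables disagreed about the start site. Nr4a1-201, whose first exon begins at 101266846 of chromosome 15, took 63.6% ± 1.77 of the gene's TPM in the RSEM layout (790 and 883 counts) and 8.41% ± 6.44 in the kallisto layout (57.5 and 205 counts). Nr4a1-202, which begins at 101254269, took 21.5% ± 3.86 in the first and 67.6% ± 2.78 in the second. All transcripts from the start at 101266846 together took 69.3% ± 0.799 and 23.4% ± 7.01. The difference between the tables was larger than the SD between libraries in each. Of 2447 windows of 31 bases in Nr4a1-201, 27 occurred in no other Nr4a1 transcript, against 199 of 2523 in Nr4a1-202. Windows shared with Nr4a1-203, which begins at the same start as Nr4a1-201, are not among the 27. The 27 thus do not count every window that separates that start from the upstream one. The sum over the gene hardly moved, at 26.3 ± 1.11 and 24.8 ± 1.27 TPM.

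The TPM of Nr4a2 and Nr4a3 was also divided over transcripts with more than 1 annotated start, and no 5′ ends of RNA were measured. Nr4a2-201 and Nr4a2-205, which begin at 57115038 of chromosome 2, took 57.8% ± 4.66 of the Nr4a2 TPM in the RSEM layout and 55.1% ± 0.519 in the kallisto layout. The upstream start at 57124003, where Nr4a2-203 and Nr4a2-206 begin, took 31.1% ± 2.01 and 20.1% ± 0.392. Nr4a2-202 took 8.47% ± 2.96 and 24.8% ± 0.911, and neither it nor Nr4a2-203 has a window of 31 bases of its own. Nr4a3-201 led Nr4a3 with 70.4% ± 1.21 and 58.7% ± 2.65. In the RSEM layout the processed transcript Nr4a3-202 had 104 counts in replicate 1 and 43.7 in replicate 2, and the kallisto layout gave 148 and 73.2. The coding form Nr4a3-203 had 137 and 364 counts in the RSEM layout, with posterior SDs of 69.6 and 82.3 counts, and 379 and 528 in the kallisto layout.

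Transcript classes not annotated as coding took part of the TPM of several of these genes. In the RSEM layout Egr3 and Npas4 had the highest such shares of the 10, at 42.0% ± 1.64 and 39.7% ± 10.8. In the kallisto layout Npas4 had 40.1% ± 8.85, Nr4a3 24.9% ± 5.32 and Egr3 23.1% ± 2.07. In Egr3 the coding Egr3-204 took 42.3% ± 3.11 in the RSEM layout, and the retained-intron form Egr3-202 took 26.3% ± 2.25 (495 and 673 counts). The short processed transcript Egr3-203, of 489 bases, held 33.4 and 38.0 counts in the RSEM layout, 2.16% and 2.06% of the gene's counts. It took 15.7% ± 0.614 of the TPM there and was at 0 in the kallisto layout, where Egr3-204 took 56.6% ± 2.13. In Npas4 the coding Npas4-201 took 67.9% in replicate 1 and 52.6% in replicate 2, and the form annotated for nonsense-mediated decay, Npas4-203, took 10.0% and 27.5%. The kallisto layout gave 66.1% and 53.6% for Npas4-201 and 18.4% and 32.5% for Npas4-203, the same direction. These shares rest on few reads, 179 and 119 counts for Npas4-201 and 17.4 and 41.7 for Npas4-203, with posterior SDs of 11.3 and 19.0 counts for the latter. In the RSEM layout 2 of the 10 genes, Egr3 and Npas4, had over 20% of their TPM on noncoding classes, and 37.3% of detected coding genes did. In the kallisto layout Nr4a3 joined them, making 3 of 10 against 43.0%.

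Arc reads were divided between a pair of almost identical transcripts. Arc-201, of 3055 bases, took 65.2% ± 2.41 in the RSEM layout and Arc-202, of 3054 bases, took 34.8% ± 2.41, and the kallisto layout gave 67.9% ± 2.98 and 32.1% ± 2.98. Of 3025 and 3024 windows of 31 bases in them, 30 and 29 were their own. The posterior SD was 143 and 147 counts for each transcript, while that of the gene was 0.

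**Figure D3:**
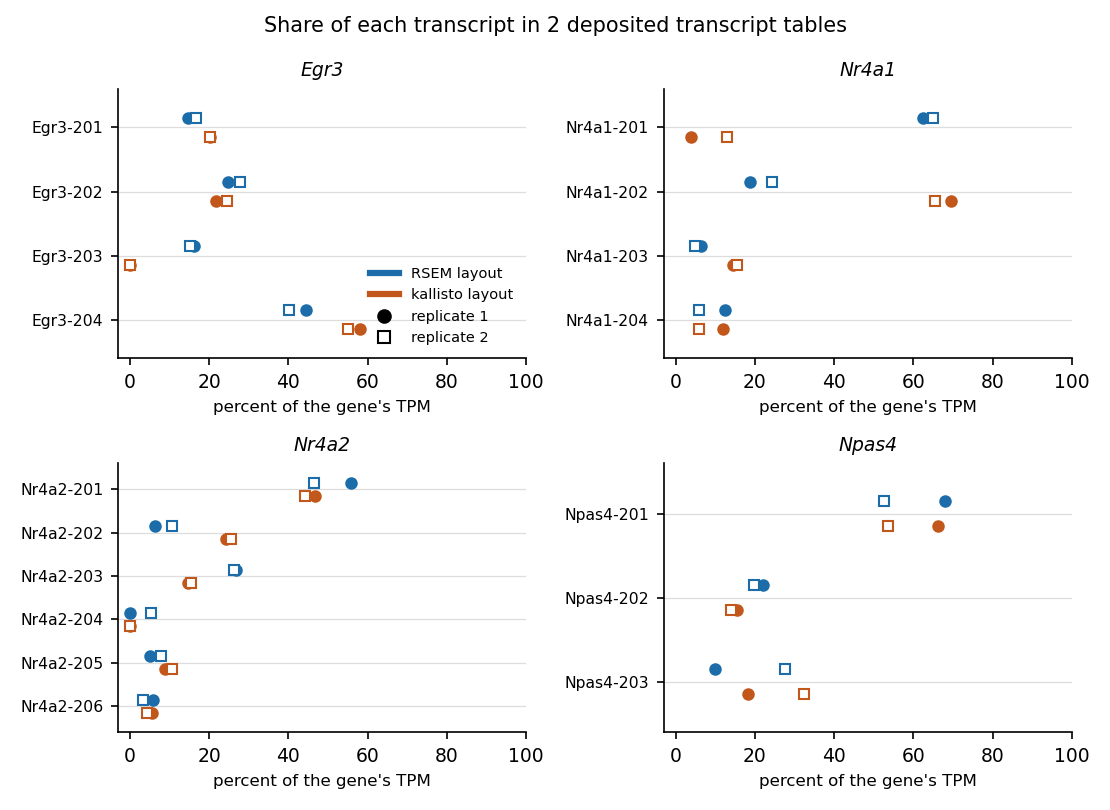
Percent of the TPM of Egr3, Nr4a1, Nr4a2 and Npas4 on each transcript that took at least 5% in some library, in the RSEM layout (blue) and the kallisto layout (orange), with replicate 1 filled and replicate 2 open. Nr4a1-201 lies at 62.4% and 64.9% in the first table and at 3.86% and 13.0% in the second, and Npas4-203 is higher in replicate 2 in both.

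The sequence before the starts of these genes is shown next, because the shares by start site above turn on them and because CREB and serum response factor act there. Promoters from RefSeq (GRCm38.p6, the mm10 assembly) were matched for 6 of the 10 genes, Egr2, Egr4, Nr4a1, Nr4a2, Nr4a3 and Npas4. The RefSeq window of Npas4 lies wholly within an annotated exon, downstream of the leading start at 4990316, and 152 of the 250 bases of the Nr4a3 window lie within an exon, so these are not wholly sequence before transcription begins. The 250 bases before each RefSeq start were searched on both strands for the core of the cyclic AMP response element (TGACG, or CGTCA on the other strand), for the full element TGACGTCA, which holds the core on each strand, for the CArG box of serum response factor, for the Egr site GCGGGGGCG and for the Nr4a site AAAGGTCA. All 6 genes, the 4 with a window clear of exons among them, held at least 1 core site, and 19.8% of 27025 genes in the table did. Nr4a1, Nr4a2 and Nr4a3 held 4 each, and Egr4 and Npas4 held 2 each. Egr2 held 2 before its start at 67537869. None of the 6 held the full element, which 1.77% of genes held. Egr2 alone held an exact CArG box (CC, 6 bases of A or T, then GG), and 1.62% of genes held one. A box began 72 bases before each of the Egr2 starts at 67537869 and 67537566. Looser forms of the box were not searched. Nr4a1 alone held the Egr site, 60 bases before the start, against 2.93% of genes, and none held the Nr4a site, against 1.55%. A match is a run of letters and no evidence that a protein binds there.

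Of the windows that lie outside every annotated exon of their gene, 4 are printed, with core sites and CArG boxes in capitals. Egr2 is at chr10:67537619-67537868 (plus strand), Egr4 at chr6:85513590-85513839 (minus strand), Nr4a1 at chr15:101266596-101266845 (plus strand) and Nr4a2 at chr2:57124004-57124253 (minus strand). The Nr4a1 window precedes the start of Nr4a1-201, to which the 2 tables gave 63.6% and 8.41% of the gene. The Nr4a2 window precedes the upstream start, which took 31.1% and 20.1%.
Egr2: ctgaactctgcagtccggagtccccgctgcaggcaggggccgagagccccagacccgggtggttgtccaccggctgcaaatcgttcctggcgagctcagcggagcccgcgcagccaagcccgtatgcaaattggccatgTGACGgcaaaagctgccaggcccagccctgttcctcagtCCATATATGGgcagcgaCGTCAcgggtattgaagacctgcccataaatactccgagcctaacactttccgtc
Egr4: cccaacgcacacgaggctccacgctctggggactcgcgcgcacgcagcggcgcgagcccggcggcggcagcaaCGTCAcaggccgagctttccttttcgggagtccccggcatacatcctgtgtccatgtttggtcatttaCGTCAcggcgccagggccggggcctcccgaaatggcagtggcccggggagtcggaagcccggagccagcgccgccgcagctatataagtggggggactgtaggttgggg
Nr4a1: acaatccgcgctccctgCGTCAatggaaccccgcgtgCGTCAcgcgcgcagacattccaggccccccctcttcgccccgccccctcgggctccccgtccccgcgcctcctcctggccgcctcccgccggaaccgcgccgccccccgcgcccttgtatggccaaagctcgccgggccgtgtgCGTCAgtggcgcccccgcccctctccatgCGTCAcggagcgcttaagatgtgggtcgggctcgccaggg
Nr4a2: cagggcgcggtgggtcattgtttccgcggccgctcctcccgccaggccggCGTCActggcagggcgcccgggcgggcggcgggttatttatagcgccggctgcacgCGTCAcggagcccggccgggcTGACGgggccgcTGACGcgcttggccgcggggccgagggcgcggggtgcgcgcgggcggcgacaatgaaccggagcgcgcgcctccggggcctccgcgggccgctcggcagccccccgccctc

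In the printed Egr2 window the CArG box lies between the core sites, which begin 111 and 55 bases before the start. The core sites of Nr4a1 begin 233, 213, 69 and 40 bases before its start, and those of Nr4a2 begin 200, 144, 123 and 111 bases before its own. In Egr4 they begin 177 and 109 bases before the start.

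The genes were short. The leading coding transcripts of the 10 genes spanned a median of 5600 bases of genome, against 22615 for 13227 detected nuclear protein-coding genes, and 9 of 10 lay below that median. Nr4a3 was the exception, with 41293 bases. Egr2, Egr3 and Egr4 have 2 exons, Egr1 and Arc 3, Nptx2 5 and Nr4a1 7, against a median of 8 for all genes. Nr4a2, Nr4a3 and Npas4 have 8 each. The 7 exons of Nr4a1 are those of Nr4a1-201, and Nr4a1-202, which led in the kallisto layout, has 8. Coding lengths were not short, with a median of 1516 bases against 1344. Arc has 2 splice junctions after its stop codon, the farther at 757 bases. It was the one gene of the 10 with a junction more than 50 bases after the stop codon. Of these 13227 leading coding transcripts 0.438% had such a junction, a feature known to bring an mRNA under nonsense-mediated decay once it is translated. Transcripts annotated for nonsense-mediated decay were left out of that count, so the share depends on how transcripts were classed.

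Beside them were set 4 lists of 52 genes, of other immediate early genes, later effectors, upstream transcription factors and direct partners. All 52 were detected, against 60.2% of nuclear protein-coding genes. None was past 2-fold between the libraries, against 2.68% of all genes compared. The 20 other immediate early genes had a median of 9.65 ± 0.491 TPM, below the median of 20.2 ± 1.41 TPM for the 10 genes. Their highest was Jund at 83.7 ± 0.177 TPM, an AP-1 subunit with steady expression in many tissues, and their lowest Maff at 1.86 ± 0.325 TPM. Klf2, a Krüppel-like factor that is also prominent in endothelial cells, had their largest ratio, a log2 of -0.46 from 8.13 to 5.95 TPM. The 9 later effectors had a median of 21.9 ± 2.53 TPM, from Inhba, a subunit of activin, at 3.81 ± 0.693 TPM to the neurite growth factor Nrn1 at 102 ± 2.54 TPM. The 11 upstream transcription factors had the highest median, 36.1 ± 1.29 TPM, from the CREB coactivator Crtc2 at 18.5 ± 0.955 TPM to Mef2d at 79.6 ± 7.48 TPM.

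**Figure D4:**
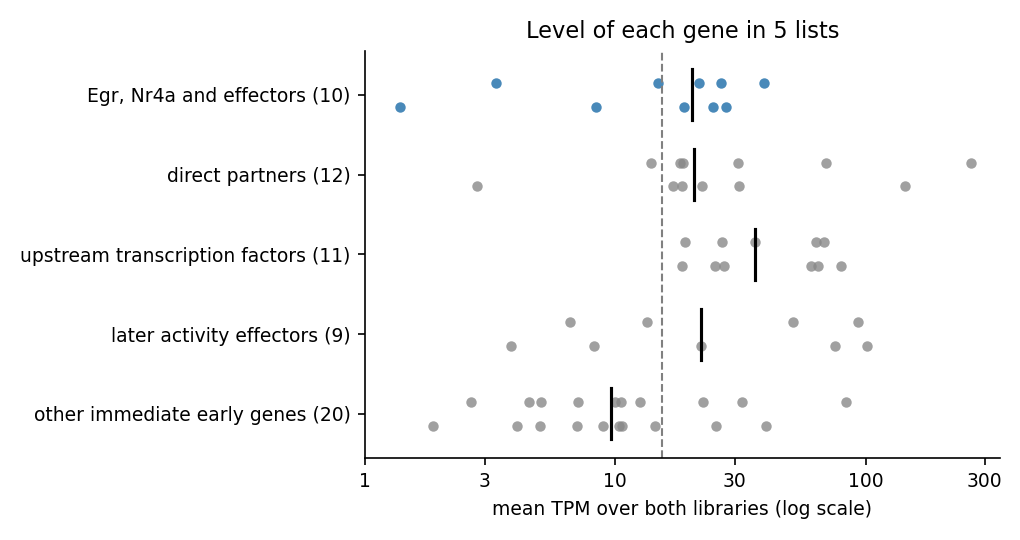
Mean TPM over both libraries (log axis) of each gene in 5 lists, with the number of genes in brackets, a bar at each list's median and a dashed line at the median of detected nuclear protein-coding genes. The medians run from 9.65 TPM for other immediate early genes to 36.1 TPM for upstream transcription factors, with 20.2 TPM for the 10 genes.

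Direct partners of the proteins were expressed at unequal levels. Nptxr and Nptx1, the pentraxins that assemble with Nptx2, stood at 264.5 ± 25.3 and 144 ± 11.2 TPM, where Nptx2 had 14.8 ± 0.424 TPM. For Npas4 (3.33 ± 0.658 TPM), the dimer partner Arnt2 stood at 69.4 ± 8.15 TPM and Arnt at 17.0 ± 1.97 TPM. Arnt2 was higher in replicate 2 (log2 ratio 0.13) and Arnt lower (-0.16). The Egr corepressors Nab1 and Nab2 stood at 18.1 ± 0.983 and 22.1 ± 0.764 TPM, close to Egr1 and Egr3. Of the retinoid X receptors that pair with Nr4a1 and Nr4a2, Rxrb stood at 31.2 ± 0.742 TPM, Rxra at 13.8 ± 0.0849 TPM and Rxrg at 2.80 ± 0.127 TPM. Among proteins that bind Arc, dynamin 2 (Dnm2) stood at 30.9 ± 0.0990 TPM, endophilin 3 (Sh3gl3) at 18.4 ± 0.962 TPM and the ubiquitin ligase Rnf216 at 18.7 ± 1.39 TPM. Of the 12 partners 10 were higher in replicate 2 (median log2 ratio 0.06).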

How the data were processed

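Per the labels and the accompanying readme, the authors made each table per library on mm10 with GENCODE M21. The authors deposited expected counts, TPM, TPM intervals and posterior SDs per gene and transcript in the layout of RSEM, with isoform percent per transcript. Per transcript, the deposited kallisto-layout tables hold estimated counts and TPM. No aligner or counter version is given in the sources used here. The layouts subtract different amounts from transcript lengths, 100 bases in the first and about 231 and 235 in the second, so TPM differ between them.

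Kallisto-layout values were summed to genes. Rounded expected counts were scaled by edgeR's TMM (edgeR 4.0.16 under R 4.3.3), with a prior count of 2, for genes averaging 10 counts or more. The coefficient of variation came from edgeR's common dispersion in an intercept-only fit. The exact intervals of the log2 ratios cover counting error only, and reads carry no molecular identifiers. Rows of 96 spike-ins, 1 phiX row and 26248 numeric identifiers, the last with 1.44e-05% and 6.19e-06% of counts, were left out of library sizes. For 86 genes the kallisto-layout table gave no row. The ratio script was tested on simulated counts. Other tables used Python 3.11.15, numpy 2.4.6, pandas 2.3.3, scipy 1.17.1 and matplotlib 3.10.9.

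The genes and lists were chosen with earlier results of these data known. All 10 genes and their transcripts with at least 5% of TPM were eligible to be named, with, from the other lists, the highest, the lowest and the largest ratio, and all direct partners. For 2 list genes older symbols were matched. Some shared runs and window counts are not reported here. Alternatives covered the table, scaling, prior count, filter, pseudocount and each library left out. DESeq2 1.42.0 gave size factors for one of these.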

Additional observations from a re-analysis of the deposited data

How the results depend on the processing

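The count of genes past 2-fold stayed at 0 under all 10 alternatives of scaling, prior count, filter and table. Of 99 alternative log2 ratios of single genes 3 had another sign, for Egr2 with spike-in scaling (0.06) and kallisto-layout counts (0.22) and for Nr4a1 with spike-in scaling (0.06). The filter alternatives return the main ratio of each gene they keep by construction, so they could change neither a sign nor the count. The ratio of deposited TPM with a pseudocount of 0.1 gave -0.63 for Egr2. The share of all genes past 2-fold was 0.290% for genes averaging 100 counts or more and 9.54% with no filter, in place of 2.68%. Without division by length 6 of the 10 genes kept their place in the order of levels, with Nr4a3, the longest, moving to place 2. Leaving out a library kept 8 to 10 places. The count of genes detected was 9 in the kallisto layout, and 8 and 7 at thresholds of 5 and 10 TPM. As a mean of log2(TPM + 1) turned back to TPM, the level of the 10 genes was 13.9 in place of a median of 20.2. That median lay in place 4 of 5 lists, in place 3 in the kallisto layout, and in places 2 to 4 with a library left out (2 without replicate 1). The causes of these shifts were not tested, beyond what the alternatives change by construction. Leaving out a library gives no ratio, so none is given. No paired analysis was possible because the libraries form 1 group. With 56 and 64 counts, the counting interval of Egr2 ran from -0.55 to 0.53 on the log2 scale, and a difference inside it was not detectable at this depth.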

Other observations

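The 3′ untranslated regions and base composition of the same transcripts were counted as well. AU-rich elements, of which the pentamer ATTTA is the core, are known to shorten the life of many immediate early mRNAs. Of the 10 leading coding transcripts 8 held at least 1 ATTTA in the 3′ untranslated region, and 69.1% of 12211 detected coding transcripts with at least 100 bases of it did. The median density was 1.76 per kilobase for the 10 genes and 1.31 for all, and 8 of 10 lay above the latter. Nr4a1 had the highest density, 3 in 543 bases or 5.52 per kilobase, above 94.9% of transcripts. Arc and Egr4 held 0 in 1668 and 519 bases. The median GC content was 55.3% against 50.7% for all, and 8 of 10 lay above the latter. Egr4 had 68.2% GC, above 99.8% of transcripts, and Nr4a2 the lowest of the 10 with 47.9%. These counts describe sequence and were not set against any measure of stability.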
